A study of Mus musculus with 23 samples.

Results

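Muscle precursor cells that had been taken from mouse muscle and never grown in culture were compared with mouse embryonic stem cells (ESC) by the methylation of their DNA. The fresh precursors gave 2 of the 23 libraries of the series, ScQ from uninjured muscle and ScA from muscle 3 days after CTX injury, both from male C57BL/6J mice. The ESC gave 4 libraries from 3 lines: CGR8 (129Sv, male) with a technical replicate, RD1 (129X1/SvJ, male) and E14Tg2 (129/Ola). The 2 CGR8 libraries were summed, so n = 2 for fresh precursors and n = 3 for ESC. How the precursors were isolated and how many mice they came from is not given in the sources used here, and the p-values below measure only the spread between these libraries. ScQ and ScA also differ in injury, so that spread includes it. Every fresh precursor is C57BL/6J and every ESC line carries a 129 background, so cell type and strain cannot be told apart in this comparison.

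AIMS-seq, the method used here, relies on a pair of enzymes that cut the same site, CCCGGG. SmaI first cuts the unmethylated sites and leaves blunt ends. XmaI then opens the methylated sites that remain, and adaptors join only its cohesive ends, so a fragment is amplified when the neighbouring sites at both of its ends were methylated. A read count is therefore a relative measure of molecules methylated at both ends and not a percentage of methylation. In mammals most CpG sites outside CpG islands carry methylation, while islands at promoters are mostly free of it. Satellite cells, the resting precursors of adult muscle, are marked by the transcription factor Pax7, and they activate Myf5 and Myod1 when muscle is injured. Embryonic stem cells use another set of regulators, whose genes often gain methylation once cells leave pluripotency.

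Of the 173430 fragments in the table, 49684 are under 2000 bp and lie on chromosomes 1 to 19, and these were used. They held 5732958 reads in ScQ and 7119178 in ScA, against 21635008 in CGR8, 8860832 in RD1 and 7273250 in E14Tg2. Levels are given as CPM, reads of a fragment scaled to a sum of 1000000 over these fragments in the same library. Log2 folds are fresh precursors over ESC, with their standard errors, from edgeR's quasi-likelihood test with TMM scaling. A fragment was called at an adjusted p (Benjamini-Hochberg over all tested) under 0.05. Promoter fragments are those that touch a transcript's start region (2000 bp before the start and 500 bp after it), and the fragment names exon and intron follow from the rest of the gene.

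The sequences of 5 fragments that the results turn on are shown on the plus strand of mm9. The Myf5 and Cdh15 fragments belong to muscle precursor genes, Gtf2h1 stands for the promoter islands, Micall1 is a fragment with 0 reads in ESC, and the last is a copy of the repeat L1Md_A. Capitals mark what remains of the restriction site at each end, GGG or CCC, and every CG.
Myf5 exon fragment (chr10:106921116-106921344): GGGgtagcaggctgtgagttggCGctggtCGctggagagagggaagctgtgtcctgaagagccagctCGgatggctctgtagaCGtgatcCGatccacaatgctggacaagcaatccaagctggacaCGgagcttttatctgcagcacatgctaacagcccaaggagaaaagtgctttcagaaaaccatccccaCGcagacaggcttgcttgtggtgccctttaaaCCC
Cdh15 exon fragment (chr8:125389045-125389275): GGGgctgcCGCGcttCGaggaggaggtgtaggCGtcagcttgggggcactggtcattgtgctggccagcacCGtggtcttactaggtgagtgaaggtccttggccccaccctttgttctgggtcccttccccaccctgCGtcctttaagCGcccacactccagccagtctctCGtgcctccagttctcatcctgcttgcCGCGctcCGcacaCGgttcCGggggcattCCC
Gtf2h1 promoter fragment (chr7:54051714-54051955): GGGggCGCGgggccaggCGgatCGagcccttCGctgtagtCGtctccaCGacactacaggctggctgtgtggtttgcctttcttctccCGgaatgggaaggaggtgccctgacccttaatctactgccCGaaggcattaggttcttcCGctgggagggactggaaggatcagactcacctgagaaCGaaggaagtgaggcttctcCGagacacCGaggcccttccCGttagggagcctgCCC
Micall1 intron fragment (chr15:78958257-78958488): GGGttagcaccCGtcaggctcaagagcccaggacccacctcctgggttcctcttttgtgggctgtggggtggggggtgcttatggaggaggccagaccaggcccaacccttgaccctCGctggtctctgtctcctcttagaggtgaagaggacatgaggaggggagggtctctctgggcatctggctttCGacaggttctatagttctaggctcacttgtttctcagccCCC
L1Md_A fragment between genes (chr17:55677090-55677245): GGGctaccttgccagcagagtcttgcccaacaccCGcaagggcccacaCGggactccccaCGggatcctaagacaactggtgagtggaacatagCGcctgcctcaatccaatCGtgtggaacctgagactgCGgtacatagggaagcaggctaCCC
These fragments hold 7, 13, 14, 3 and 6 CG in the order shown. Of the 229 bp of the Myf5 fragment, 151 bp are coding sequence, and of the 231 bp of the Cdh15 fragment 133 bp are. None of the 5 touches an annotated UTR.

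Fresh precursors had more reads than ESC at 2840 fragments and fewer at 1647 of the 16289 that passed the low-count filter, which is 17.4% higher and 10.1% lower. The median log2 fold of the higher fragments was 2.93 and that of the lower ones was -1.75, with 0.02 over all tested fragments. Fitted folds of the 107 fragments with 0 reads in a group depend on the model's prior, and with these set at their bound against 3 reads no median given here moved. These 2 medians do not compare sizes of change, because 406 of the higher and 77 of the lower fragments had 3 or fewer reads in the other group. Medians over fragments well read in both groups were not computed. All libraries of one group lay above or below those of the other at 2839 of the higher and 1633 of the lower fragments, and at 54.4% of all tested. The number of called fragments depended on single libraries, with 1331 higher and 318 lower without ScQ, and 1585 and 973 without ScA. Without ESC lines the counts were 3404 and 2328 (CGR8 left out), 3282 and 2329 (RD1) and 2086 and 1446 (E14Tg2).

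**Figure D1:**
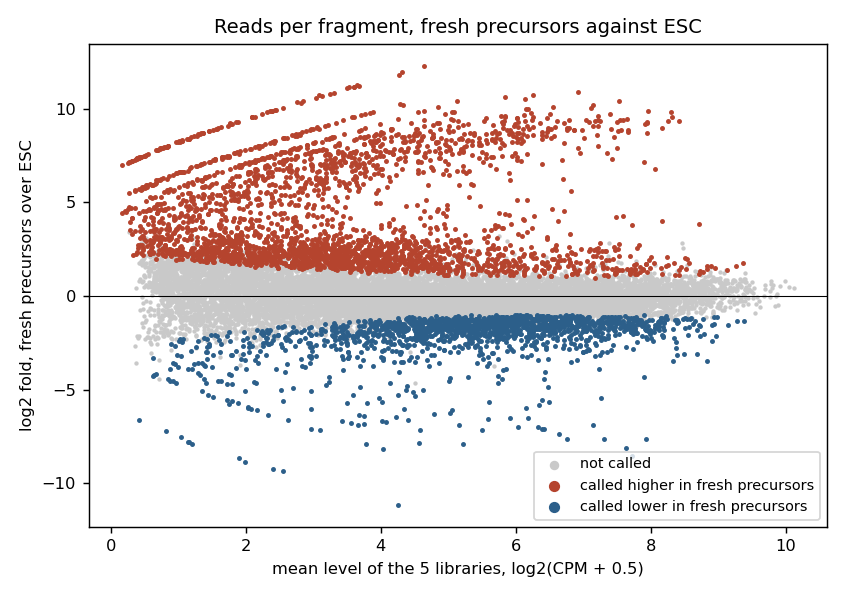
Each point is 1 of the 16289 tested fragments, with the mean level of the 5 libraries on the x axis, as log2(CPM + 0.5), and the log2 fold of fresh precursors over ESC on the y axis. The 2840 fragments called higher spread up to a fitted log2 fold of 12.27, and most of the 1647 called lower lie near their median of -1.75; the arcs at the upper left are fragments with 0 or few ESC reads.

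The CGR8 libraries, labelled as technical replicates, differed from each other. In the second, 883 fragments were at least 4-fold higher than in the first at 20 CPM or more, and 0 were lower by that rule. At these fragments the median level was 4.26 CPM in the first CGR8 library and 44.2 CPM in the second, with 62.6 CPM in RD1 and 51.6 CPM in E14Tg2. With the first CGR8 library alone in place of the sum, 1537 fragments were higher and 456 lower, and with the second alone 3068 and 2253. Of the 883 fragments, 88 were called higher and 75 lower in the comparison as reported.

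After every library had been thinned to the 5732958 reads of ScQ, the fragments with at least 5 reads numbered 16834 in ScQ and 16848 in ScA, against 14285 in CGR8, 15524 in RD1 and 15197 in E14Tg2. Both fresh libraries stood above the 3 ESC lines. The means were 16841 ± 10 in fresh precursors and 15002 ± 642 in ESC (SD, n = 2 and 3), a difference of 1839 (2-sided exact permutation p = 0.1, the smallest that 2 against 3 libraries can give).

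At genes of the pluripotency network, 6 of 14 tested fragments (10 genes) were higher in fresh precursors and 2 were lower, which is 42.9% and 14.3% beside 17.4% and 10.1% of all tested fragments, with a median log2 fold of 1.02. The promoter fragment of Dppa4 (528 bp, chr16:48284242-48284769), a chromatin protein of early embryos and stem cells, had 132 CPM in ScQ and 160 CPM in ScA, against 1.94 CPM in CGR8, 1.92 CPM in RD1 and 0.55 CPM in E14Tg2. The groups were far apart, with a log2 fold of 6.54 ± 0.54 (edgeR adjusted p = 1.95e-05). It stood between 153 and 345 CPM in the 2 passage 0 cultures, between 208 and 261 CPM in the 3 myoblast cultures and between 422 and 723 CPM in the 3 muscle libraries. An intron fragment of Nr5a2, a nuclear receptor that can activate Pou5f1, had 7.15 CPM in ScQ and 9.83 CPM in ScA, against 0.139 CPM in CGR8, 0.113 CPM in RD1 and 0.412 CPM in E14Tg2. Its log2 fold was 5.33 ± 0.68 (edgeR adjusted p = 0.000218), while another Nr5a2 fragment was called lower. The same intron fragment stood at 7.41 to 9.96 CPM in passage 0 cells and at 0.582 to 1.34 CPM in muscle. The one tested fragment of Jarid2, a cofactor of the Polycomb complex PRC2, lies in an intron and had 149 CPM in ScQ and 389 CPM in ScA, against 824 CPM in CGR8, 642 CPM in RD1 and 816 CPM in E14Tg2. It was lower in both fresh libraries, by a log2 fold of -1.54 ± 0.47 (edgeR adjusted p = 0.0332), and this call was lost without ScQ (0.347). Dppa2 and Tdgf1 had no fragment under the length limit.

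The other higher ones of that list belong to Esrrb and Tbx3, transcription factors of the naive state, and to Lin28b, an RNA-binding protein that blocks let-7. Among genes of the methylation machinery, 5 of 11 tested fragments were higher and 1 was lower (45.5% and 9.09%), with a median log2 fold of 0.76. The higher ones lie at the de novo methyltransferases Dnmt3a and Dnmt3b, at Kdm2b, at Ctcf and in an intron of the dioxygenase Tet3. That Tet3 fragment (904 bp) had 51.1 CPM in ScQ and 86.9 CPM in ScA, against 0.37 CPM in CGR8, 0 CPM in RD1 and 0.137 CPM in E14Tg2 (log2 fold 8.15 ± 0.70, edgeR adjusted p = 2.37e-05). A second Tet3 intron fragment, in a CpG shore, went the other way with a log2 fold of -2.96 ± 0.82 (edgeR adjusted p = 0.0224). That second call was lost without ScQ (0.24) and without ScA (0.0818). Of 25 germ line fragments 1 was higher and 1 lower (4% each, below the share of all fragments), with a median log2 fold of -0.49. The higher one is in an exon of Piwil1, a piRNA-binding protein of the testis, at 16.7 and 20.1 CPM in fresh precursors against 0.113 to 0.508 CPM in ESC (5.67 ± 0.66). The lower one is at the promoter of Dmrtb1, a regulator of meiotic entry, at 27.9 and 43.3 CPM against 203 to 248 CPM (-2.64 ± 0.42), a call lost with all groups in one fit (0.327).

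The regulators of the muscle lineage gave calls of either sign. The Pax7 promoter fragment in a CpG island had 46 CPM in ScQ and 26.5 CPM in ScA, against 3.28 CPM in CGR8, 10.2 CPM in RD1 and 6.19 CPM in E14Tg2. Both fresh libraries were above every ESC line, with a log2 fold of 2.61 ± 0.49 (edgeR adjusted p = 0.00292). The same fragment had 1.62 to 20.6 CPM in passage 0 cells, 1.62 to 53.4 CPM in myoblasts and 68.1 to 193 CPM in muscle, so libraries of 1 kind of cell differed by more than the groups compared here. The promoter island fragment of Pax3, the paralogue of Pax7, had 12.9 CPM in ScQ and 11.4 CPM in ScA, against 2.03 CPM in CGR8, 6.77 CPM in RD1 and 3.57 CPM in E14Tg2 (1.68 ± 0.53, edgeR adjusted p = 0.0388). Its call was lost in 9 of the 16 alternative analyses. Of the tested fragments, 1 of 3 at Pax3 and 2 of 6 at Pax7 were called higher, and the others were not called. All 5 Pax3 fragments held 116 reads in ScQ and 141 in ScA, against 520 in CGR8, 196 in RD1 and 129 in E14Tg2. The promoter island fragment held 74 and 81 of these in ScQ and ScA, but only 44, 60 and 26 in the ESC lines. Most ESC reads at Pax3 thus lay on its other fragments. Without ScQ the Pax7 call was lost too (0.093), and with the first CGR8 library alone both were (0.0861 for Pax7 and 0.178 for Pax3).

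The exon fragment of Myf5, the first myogenic factor switched on in the embryo, had 16.6 CPM in ScQ and 31.9 CPM in ScA, against 67.4 CPM in CGR8, 58.6 CPM in RD1 and 59.7 CPM in E14Tg2. It was lower in both fresh libraries, by a log2 fold of -1.37 ± 0.40 (edgeR adjusted p = 0.028), and stood at 4.28 to 11.5 CPM in passage 0 cells and at 0.763 to 10.2 CPM in myoblasts. The exon fragment of Cdh15, the gene of M-cadherin, which holds precursors to the myofibre, had 0.523 CPM in ScQ and 0.421 CPM in ScA, against 1.39 CPM in CGR8, 7.79 CPM in RD1 and 17.3 CPM in E14Tg2. The fresh libraries held 6 reads in all and the ESC lines 225, with a wide spread among the lines (-4.04 ± 1.05, edgeR adjusted p = 0.0168). Without ScQ the Myf5 and Cdh15 calls were lost (0.251 and 0.154), and without ScA that of Cdh15 (0.15). The promoter fragment of Mef2c, a partner of the myogenic factors, did not pass, at 10.3 CPM in ScQ and 15.3 CPM in ScA, against 7.26 CPM in CGR8, 7.79 CPM in RD1 and 5.5 CPM in E14Tg2 (0.90 ± 0.46, edgeR adjusted p = 0.176). Myf6 had no fragment, and that of Myod1 held 1 read in ScQ and 0 reads in the other libraries compared, too few for the test.

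In all, 6 of 17 tested fragments of myogenic regulators were higher and 2 lower (35.3% and 11.8%, beside 17.4% and 10.1% of all), with a median log2 fold of 0.90. A second Pax7 fragment and fragments of Mef2b and Mef2d are among the other higher ones. Genes of the satellite cell niche, which hold receptors, Notch pathway members and matrix proteins of resting precursors, had 2 higher and 2 lower of 23 (8.7% each). The higher ones are an intron fragment of Foxo3, a factor of quiescence, at 60.5 and 79.9 CPM in fresh precursors against 0 to 0.185 CPM in ESC (9.24 ± 0.71), and a fragment of the syndecan gene Sdc4. The lower ones belong to the collagen genes Col5a1 and Col5a3. The Col5a1 exon fragment had 59.7 and 127 CPM in fresh precursors against 185 to 246 CPM in ESC (-1.25 ± 0.38, edgeR adjusted p = 0.0337), and its call was lost without ScQ (0.309).

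Genes of the contractile apparatus had 7 higher and 6 lower of 36 tested fragments, with a median log2 fold of -0.46. These shares, 19.4% and 16.7%, are near the 17.4% and 10.1% of all tested fragments. An exon fragment of Ryr1, the calcium release channel of skeletal muscle (412 bp, chr7:29889340-29889751, 205 bp coding), had 201 CPM in ScQ and 180 CPM in ScA, against 0.185 CPM in CGR8, 0 CPM in RD1 and 0 CPM in E14Tg2. The fresh libraries held 2435 reads in all and the ESC lines 4 (10.70 ± 0.70, edgeR adjusted p = 1.28e-05). The promoter fragment of Ckm, muscle creatine kinase, had 18.3 CPM in ScQ and 22.3 CPM in ScA, against 0.462 CPM in CGR8, 0 CPM in RD1 and 0.137 CPM in E14Tg2 (6.17 ± 0.80, edgeR adjusted p = 0.000241). The same fragment had 0.14 to 4.86 CPM in passage 0 cells and 35.4 to 60.8 CPM in muscle tissue, which expresses Ckm strongly. The promoter fragment of Acta1, skeletal actin, was lower, at 58.8 CPM in ScQ and 48.3 CPM in ScA, against 88.6 CPM in CGR8, 180 CPM in RD1 and 182 CPM in E14Tg2 (-1.38 ± 0.39, edgeR adjusted p = 0.0231). A fragment of Myh7, the slow myosin heavy chain, was lower as well (-2.34 ± 0.43, edgeR adjusted p = 0.00247). It had 23.2 CPM in ScQ and 53.5 CPM in ScA, against 149 to 252 CPM in ESC. This fragment counts as promoter because it touches a transcript's start region. All of its 1038 bp are annotated as exon and 156 bp as coding, so it may lie inside the gene. Without ScQ the Acta1 and Myh7 calls were lost (0.101 and 0.0571), and without ScA that of Acta1 (0.11).

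**Figure D2:**
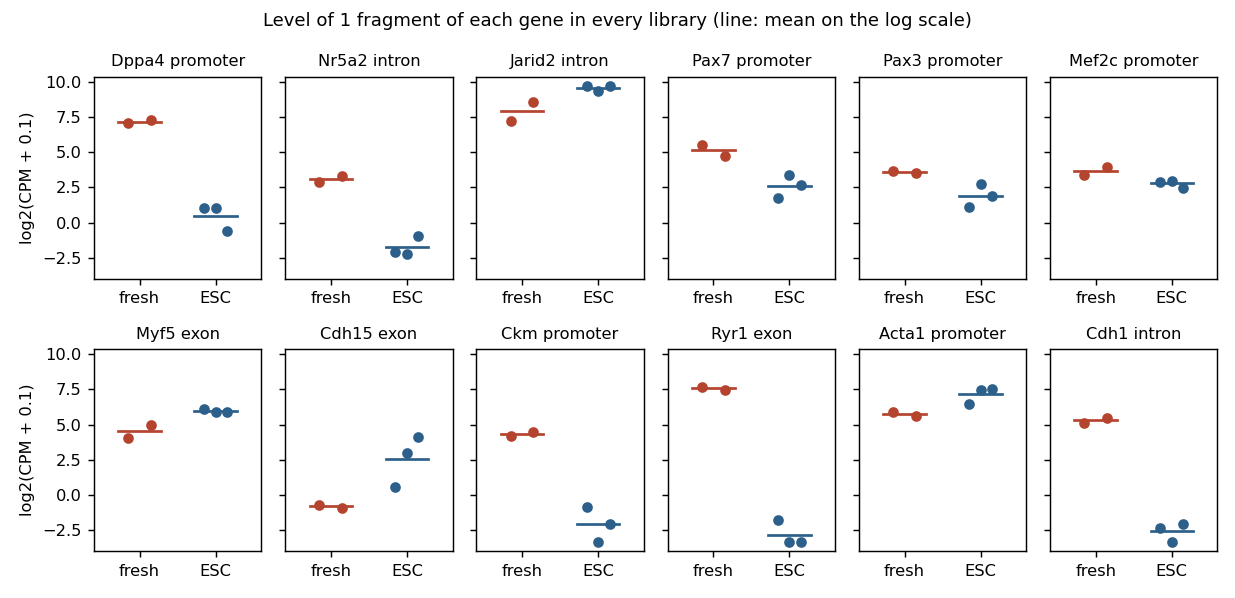
Each panel shows 1 fragment of a gene, with 1 point per library, the 2 fresh precursor libraries on the left and the 3 ESC lines on the right, and the y axis in log2(CPM + 0.1). The line is the mean on that scale. Dppa4, Ckm, Ryr1 and Cdh1 are below 2 CPM in every ESC line and at 18.3 CPM or more in fresh precursors, while Myf5, Jarid2 and Acta1 have reads in every library and are lower in fresh precursors.

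Genes of other lineages also carried fragments of either sign. Among HOX genes, which set position along the body axis, 6 of 15 tested fragments were higher and 2 lower (40% and 13.3%, beside 17.4% and 10.1% of all, median log2 fold 1.07), with 3 of the higher ones at Hoxd9. The Hoxc5 exon fragment had 208 CPM in ScQ and 147 CPM in ScA, against 6.01 CPM in CGR8, 17.2 CPM in RD1 and 6.87 CPM in E14Tg2 (4.26 ± 0.47, edgeR adjusted p = 8.82e-05). A promoter fragment shared by Hoxd4 and Hoxd3 was lower, at 13.4 and 8.15 CPM in fresh precursors against 34.8 to 48.7 CPM in ESC (-1.87 ± 0.48, edgeR adjusted p = 0.016), a call lost without ScQ (0.0551) and without ScA (0.0955). Endoderm and epithelial genes had 7 higher and 2 lower of 17 (41.2% and 11.8%, median log2 fold 1.04). Among them is an intron fragment of Cdh1, E-cadherin, at 35.1 CPM in ScQ and 43.8 CPM in ScA, against 0.0924 CPM in CGR8, 0 CPM in RD1 and 0.137 CPM in E14Tg2. That is 513 reads in fresh precursors against 3 in ESC, a ratio of CPM of 503, with an exact 95% counting interval of 171 to 2444.8. Of the 3 tested fragments of Cdh1, 2 were called higher and 1 was called lower. The keratin gene Krt8 was also among the higher ones, and an exon fragment of the homeobox gene Prox1 was lower (-2.19 ± 0.53), a call lost without ScQ (0.189).

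Neural genes had 8 higher and 4 lower of 34 tested fragments (23.5% and 11.8%, near the shares of all fragments, median log2 fold 0.21). The LIM homeobox gene Lhx2 alone gave 3 of the higher and 1 of the lower ones, and its promoter fragment stood at 106 CPM in ScQ and 78.9 CPM in ScA, against 11.2 CPM in CGR8, 27 CPM in RD1 and 13.9 CPM in E14Tg2 (2.52 ± 0.41, edgeR adjusted p = 0.0012). An intron fragment of Rbfox3, the neuronal splicing factor NeuN, was lower (-2.04 ± 0.41). The T-box and homeobox list had 8 higher and 8 lower of 58 (13.8% each), with a median log2 fold of -0.07. The homeobox gene Meis2 had an intron fragment in an L1 element at 163 and 94.5 CPM in fresh precursors against 0 to 0.74 CPM in ESC (8.41 ± 0.93), and Lmx1a had 3 lower ones. At imprinted genes 2 fragments were higher and 3 lower, out of 22 (9.09% and 13.6%). The higher ones lie at Igf2 and Phlda2, a growth brake of the placenta, and the lower ones at Trappc9 (-2.16 ± 0.36) and Kcnq1. The Phlda2 exon fragment had 104 CPM in ScQ and 55.1 CPM in ScA, against 17 CPM in CGR8, 25.5 CPM in RD1 and 11 CPM in E14Tg2 (2.23 ± 0.47, edgeR adjusted p = 0.00571). Without ScQ the calls at Phlda2 and Rbfox3 were lost (0.148 and 0.0782). The 3 tested protocadherin fragments had 0 calls by edgeR, 0 at an unadjusted p under 0.05 and 0 by DESeq2.

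Lists of cell types that muscle also holds were examined, since a preparation of fresh cells may contain them. Blood genes had 2 higher and 5 lower of 25 tested fragments, endothelial genes 6 and 3 of 36, fibroblast genes 1 and 5 of 24 and adipocyte genes 2 and 6 of 31. The shares higher were 8%, 16.7%, 4.17% and 6.45% in that order, beside 17.4% of all tested fragments, and the shares lower 20%, 8.33%, 20.8% and 19.4%, beside 10.1%, so those of endothelial genes are at the background. Schwann cell genes had 0 higher and 3 lower of 8 by edgeR (1 higher at an unadjusted p under 0.05 and 1 by DESeq2). The integrin gene Itgam, a marker of myeloid cells, had a higher intron fragment, which carries the repeat RLTR10-int (7.58 ± 0.67). It had 76.1 CPM in ScQ and 86.7 CPM in ScA, against 0.693 CPM in CGR8, 0.113 CPM in RD1 and 0.137 CPM in E14Tg2. The same fragment had 73.5 to 91.9 CPM in passage 0 cells, 99.1 to 108 CPM in cultured myoblasts and 99.1 to 137 CPM in muscle. The promoter of Runx3, a factor of T cells, was lower, with 7 reads against 248 (-3.56 ± 0.71, edgeR adjusted p = 0.00425), a call lost without ScQ (0.0813). Among endothelial genes, an exon fragment of the matrix protein gene Mmrn2 had 4.01 and 5.9 CPM in fresh precursors against 0 to 0.275 CPM in ESC (5.21 ± 0.90), a call lost without ScA (0.0539). An intron fragment of Flt4, a receptor of lymphatic vessels, had 27.6 and 29.5 CPM against 55.6 to 96.9 CPM (-1.30 ± 0.36, edgeR adjusted p = 0.023), a call lost without ScQ (0.138), without ScA (0.0837) and without E14Tg2 (0.0667). The exon fragment of Osr1, a factor of connective tissue precursors, had 135 CPM in ScQ and 56.7 CPM in ScA, against 4.81 CPM in CGR8, 26.5 CPM in RD1 and 13.1 CPM in E14Tg2 (2.88 ± 0.60), a call lost without ScQ (0.145). The promoter island of Acaca, the first enzyme of fatty acid synthesis, was higher (2.36 ± 0.63, edgeR adjusted p = 0.0197), a call lost without ScQ (0.232), without ScA (0.1) and without E14Tg2 (0.0548). An intron fragment of the myelin gene Pmp22 was lower (-1.71 ± 0.46, edgeR adjusted p = 0.0193), a call lost without ScQ (0.197). Lower fragments of the adipocyte list include an intron of Ebf2 (-2.66 ± 0.38), and those of the fibroblast list an intron of Tagln, at 26.2 and 21.1 CPM in fresh precursors against 84 to 222 CPM in ESC (-2.63 ± 0.44). The Tagln call was lost with the first CGR8 library alone (0.0806) and with all groups in one fit (0.36), and the Ebf2 call in that fit (0.0584). Methylation of these genes does not measure how many such cells were present, and neither the labelled cell types nor the purity of the preparations could be checked by expression of markers. For the short marker lists, summed levels in ScQ and ScA against the range over the ESC lines were 624 and 460 against 395 to 437 CPM (muscle precursor), 341 and 446 against 319 to 373 CPM (ESC), 367 and 231 against 162 to 214 CPM (blood), 184 and 166 against 183 to 250 CPM (endothelial), 8.55 and 8.43 against 8.97 to 27.6 CPM (fibroblast), 24.8 and 29.5 against 27 to 42.4 CPM (Schwann) and 189 and 224 against 298 to 368 CPM (adipocyte). Called fragments among these markers were 2 of Pax7, 2 of Dppa4, 1 of Esrrb and 1 of Itgam (higher) and 1 each of Myf5, Cdh15, Emcn and Plin1 (lower). Fewer cells of a type and fewer methylated molecules per cell cannot be told apart in such bulk libraries.

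The named protein coding genes with the largest fitted folds were read almost only in 1 of the groups. Micall1, an endosomal adaptor gene, had 759 reads in an intron fragment in fresh precursors (76.4 CPM in ScQ and 45.1 CPM in ScA) and 0 in ESC, at least 744-fold higher against 3 reads over the group. It stood at 28 to 44.3 CPM in passage 0 cells and at 2.1 to 3.09 CPM in muscle. Sema3b, a semaphorin gene, had 325 CPM in ScQ and 279 CPM in ScA in an exon fragment, against 0.277 CPM in CGR8, 0 CPM in RD1 and 0 CPM in E14Tg2 (10.86 ± 0.78). Jph3, a junctophilin of neurons, had 456 and 465 CPM in an intron fragment against 0 to 0.647 CPM (10.38 ± 0.91), and Cacna1i, a T-type calcium channel gene, 302 and 400 CPM against 0 to 0.555 CPM (10.17 ± 0.87). An intron fragment of Rnf165, a ubiquitin ligase gene, had 1858 reads against 3, a ratio of CPM of 1820.1, with an exact 95% counting interval of 622 to 8833.7. In the other direction, the promoter fragment of Ttc34 had 1.4 CPM in ScQ and 0.983 CPM in ScA, against 404 CPM in CGR8, 300 CPM in RD1 and 281 CPM in E14Tg2 (-8.11 ± 0.63). An exon fragment of Lphn1, an adhesion receptor gene, had 3 reads against 2025, lower by a ratio of CPM of 230, with an exact 95% counting interval of 78.5 to 1114.7. The zinc finger gene Zbtb7c had an intron fragment with 2.27 and 1.69 CPM against 369 to 435 CPM (-7.64 ± 0.54). The promoter fragment of Pex6, which imports peroxisomal enzymes, had 1.22 and 0.702 CPM against 104 to 201 CPM (-7.10 ± 0.58). The Ttc34, Lphn1, Zbtb7c and Pex6 fragments stood at 1.54 CPM or less in passage 0 cells, myoblasts and muscle. In myotubes Ttc34 reached 5.09 CPM and Zbtb7c 18 CPM at day 4.

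More of the higher than of the lower calls had few reads in the other group. Of the 2840 higher fragments, 406 had 3 or fewer ESC reads in all, and of the 1647 lower ones 77 had 3 or fewer fresh precursor reads. By level, 640 higher fragments stood above 10 CPM in both fresh libraries and below 2 CPM in every ESC line, against 50 lower ones with the groups exchanged. In the other 17 libraries of the muscle lineage, 75 to 99.4% of the 640 were above 5 CPM. Tested fragments that were not called had medians of 8.2 to 24.7 CPM in these libraries, so most of those were above 5 CPM too. The median level of the 640 was 30.9 CPM in ScQ and 41.6 CPM in ScA, 34.1 CPM in the C57BL/6J muscle library, and 22.1 and 16.3 CPM in the muscle libraries of mixed 129Sv/C57BL/6J background. At fragments not called, the medians of these muscle libraries were 14.2, 10.3 and 9.2 CPM in the same order, so that order is not particular to the 640. The reference genome mm9 is that of C57BL/6J, and at the 640 fragments too strain and cell type cannot be told apart. When only fragments with 10 or more reads in a library of each group were tested, 1685 were higher and 1243 lower of 14784.

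Of the 50 lower fragments of this kind, 16 lie on chromosome 2 between 104420375 and 128323556 (mm9), a stretch picked after the values had been seen, among them the promoter fragment of Frmd5, a FERM domain gene (1.57 and 0.421 CPM in fresh precursors against 140 to 207 CPM in ESC, -7.39 ± 0.72), and an intron fragment of Cep152, a centriole gene (1.22 and 0.843 CPM against 112 to 171 CPM, -7.09 ± 0.59). Both calls were lost with all groups in one fit (0.432 and 0.509). All 16 were below 5 CPM in ScQ, ScA, both passage 0 libraries, the myoblasts of cultures 27 and 26 and the muscle libraries of mixed background. In the myoblasts of culture 21, 14 of the 16 were above 5 CPM, and in the C57BL/6J muscle library all 16 were. Of the 124 tested fragments in this stretch, which include the 16, 90 were above 2 CPM in ScQ or ScA. Such a share over all tested fragments was not computed. The lower quartiles of fragments called higher, called lower and not called were 4.54 CPM or more in ScQ and 6.6 CPM or more in ScA. Most tested fragments of the genome thus passed 2 CPM as well, and the cause of the cluster was not tested.

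By genomic context, a large share of tested CpG island fragments was called higher in the main test, which some alternatives below did not keep. Of 648 tested island fragments, 324 were higher in fresh precursors and 15 lower. That is 50% and 2.31%, beside 17.4% and 10.1% of all tested fragments, with a median log2 fold of 1.80. Promoter islands had 247 higher and 9 lower of 474 (52.1% and 1.9%, median 1.89). Fragments outside islands and shores had 2230 higher and 1543 lower of 14441 (15.4% and 10.7%, median -0.05). Island reads summed to 12142.2 CPM in ScQ and 9781 CPM in ScA, against 3934.9 CPM in CGR8, 6699 CPM in RD1 and 4298.1 CPM in E14Tg2. That is 1.10 ± 0.167% of reads in fresh precursors and 0.498 ± 0.15% in ESC (SD, n = 2 and 3, 2-sided exact permutation p = 0.1, adjusted p = 0.25 over 10 contexts). Both fresh libraries were above the 3 ESC lines, and all these shares are small.

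The island counts rest on few reads and on the analysis. The median island fragment that was tested stood at 6.96 CPM in fresh precursors and 2.61 CPM in ESC, against 20.4 and 20.3 CPM over all tested fragments, and only 648 of 14732 island fragments passed the filter. Without the filter 8.65% of 4483 island fragments were higher, below the 12.5% of all fragments in that analysis. Without ScQ 5.01% were higher (7.87% of all), without ScA 13.6% (9.36%), with the first CGR8 library alone 7.72% (9.44%) and with all groups in one fit 1.88% (8.07%). The median log2 fold of tested islands was 0.35 without the filter and 1.5 to 1.99 in the other 4 of these analyses. In the remaining alternatives the share of islands called higher was above that of all fragments. It was 42.2% with 10 or more reads in a library of each group (11.4% of all), and lowest without E14Tg2, at 26.2% (12.9%). The summed island reads also varied widely between libraries of 1 kind, from 2200.6 to 5914.5 CPM in the 2 passage 0 libraries and from 2980.9 to 13960 CPM in the 3 myoblast cultures.

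The promoter islands with the smallest p among the higher ones were those of Haus4, Rps13, Lgmn and Gtf2h1. Haus4, a spindle protein gene, had 28.4 CPM in ScQ and 29.5 CPM in ScA, with 373 reads against 1 in ESC, a ratio of CPM of 1096.2, with an exact 95% counting interval of 196 to 43410.2. Rps13, a ribosomal protein gene, had 51.8 CPM in ScQ and 28.4 CPM in ScA, against 0.0462 CPM in CGR8, 0.339 CPM in RD1 and 0.275 CPM in E14Tg2 (7.79 ± 0.68, edgeR adjusted p = 2.48e-05). Gtf2h1, a subunit of the transcription factor TFIIH, had 341 reads against 0, at least 334-fold higher against 3 reads over the group. The same fragment touches the start region of Hps5. Lgmn, a lysosomal protease gene, had 207 reads against 1, a ratio of CPM of 608, with an exact 95% counting interval of 108 to 24141.9. A list of genes of basic cell machinery, made from gene names after these values had been seen, had 14 tested promoter island fragments, of which 11 were higher (78.6%, beside 52.1% of all promoter islands) and 0 lower by edgeR (0 lower at an unadjusted p under 0.05 and 0 by DESeq2). Since the list was made from these data, its count is a description only. They summed to 238 CPM in ScQ and 161 CPM in ScA, against 12.6 CPM in CGR8, 44.6 CPM in RD1 and 20.1 CPM in E14Tg2. The same sum was 5.25 to 227 CPM in the myoblast cultures and 281 to 848 CPM in muscle.

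Lower promoter islands were few. Znrf4, a ubiquitin ligase gene, had 3.14 CPM in ScQ and 0.421 CPM in ScA, against 122 CPM in CGR8, 118 CPM in RD1 and 111 CPM in E14Tg2 (-6.00 ± 0.76, edgeR adjusted p = 0.000204). E030030I06Rik had 2 reads against 774, lower by a ratio of CPM of 132, with an exact 95% counting interval of 36.3 to 1089.3. Slc5a5, the iodide transporter gene, had 0.872 and 0.14 CPM against 14 to 24.7 CPM (-5.26 ± 0.82). Rnf138, a ubiquitin ligase gene, had 0 reads against 178, at least 20.2-fold lower against 3 reads over the group. All 4 stood at 0 CPM in passage 0 cells and at 0.865 CPM or less in myoblasts, myotubes and muscle.

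**Figure D3:**
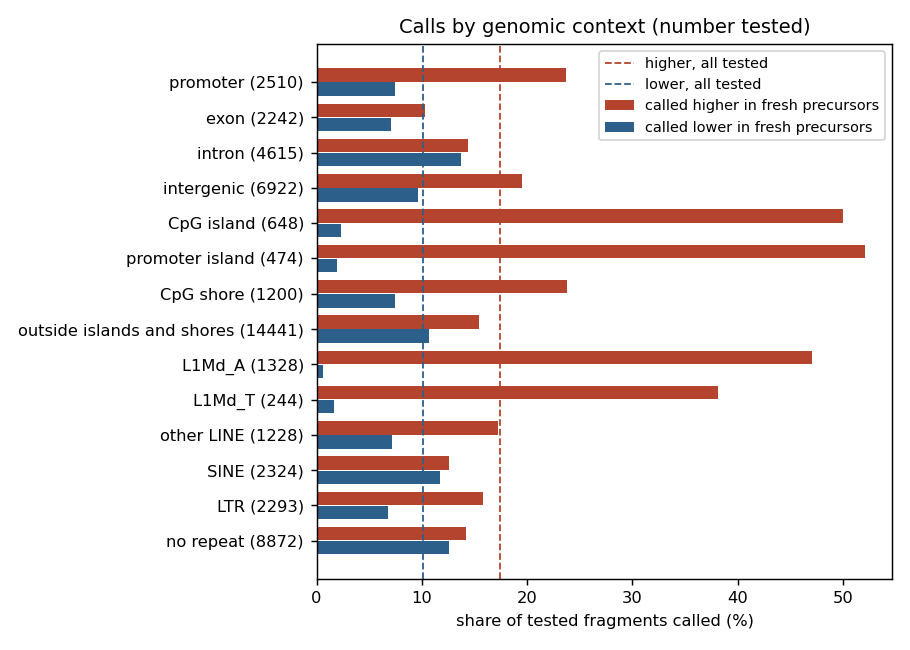
Bars give the share of tested fragments called higher (red) and lower (blue) in fresh precursors against ESC by context, with the number tested in brackets and dashed lines at the shares over all tested fragments, 17.4% and 10.1%. The red bars of CpG islands (50%), promoter islands (52.1%) and L1Md_A elements (47.1%) reach furthest past the dashed line.

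Repeats showed the other large shift. L1Md_A is a young family of LINE-1 retrotransposons, whose promoter lies in repeated units at the start of the element and is normally methylated in somatic cells. Of 1328 tested L1Md_A fragments, 625 were higher and 8 lower (47.1% and 0.602%, median log2 fold 1.65). The related family L1Md_T had 93 higher and 4 lower of 244 (38.1% and 1.64%). Other LINE fragments had 211 higher and 88 lower of 1228 (17.2% and 7.17%). SINE fragments had 292 higher and 272 lower of 2324 (12.6% and 11.7%). Over all tested fragments these shares were 17.4% and 10.1%, so the share higher of other LINE fragments is at the background. L1Md_A reads summed to 20910.7 CPM in ScQ and 18502.6 CPM in ScA, against 6463.4 CPM in CGR8, 10301.7 CPM in RD1 and 9030.2 CPM in E14Tg2. The fresh libraries were the highest of the series, and the 2 CGR8 libraries gave 4493.7 and 9381.5 CPM. The L1Md_A fragment shown above had 68.9 CPM in ScQ and 53.2 CPM in ScA, against 0.185 CPM in CGR8, 0 CPM in RD1 and 0 CPM in E14Tg2 (9.07 ± 0.73). LINE fragments as a whole took 10.2% and 9.81% of fresh precursor reads against 7.21 to 8.03% in ESC (exact permutation p = 0.1, adjusted p = 0.25).

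Under all 16 alternatives the share of higher L1Md_A fragments was above that of all fragments in the same analysis. It was 15.6% without ScQ (7.87% of all), 20.7% without ScA (9.36%), 24.9% with the first CGR8 library alone (9.44%), 27.6% without the filter (12.5%) and 21.1% with all groups in one fit (8.07%). Copies of L1Md_A are alike, so reads may be placed at the wrong copy, and how reads with several matches were treated is not given in the sources used here. The median L1Md_A fragment tested was 156 bp long, and fragment length itself went with the fold. At 150 to 200 bp, 48.7% of 988 L1Md_A fragments were higher, with a median log2 fold of 1.71. In the same length class, 15.3% of 386 fragments with no repeat and no island were higher, with a median of 0.25.

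**Figure D4:**
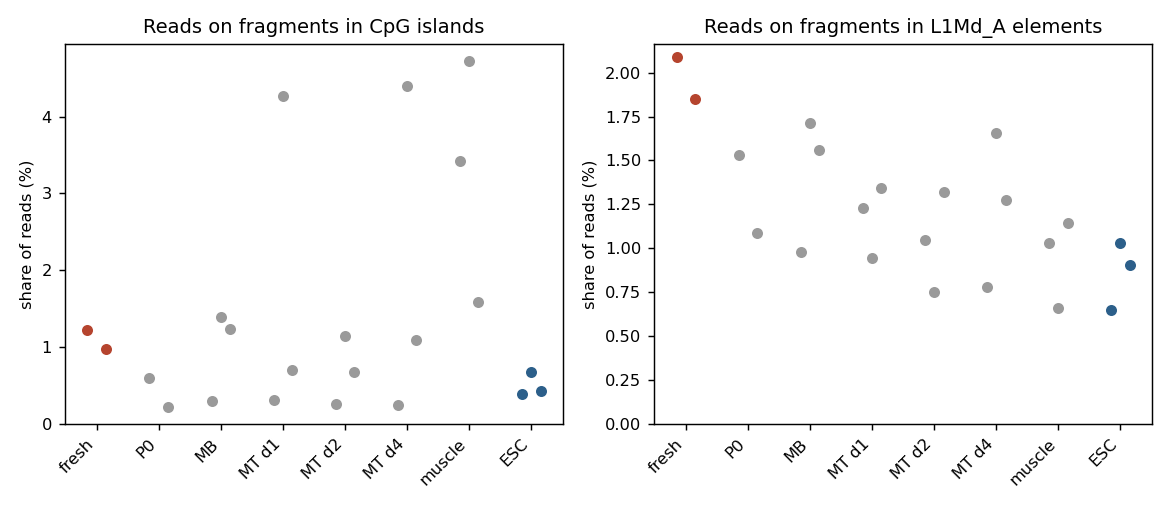
Points are libraries, and the y axis is the share of a library's reads on fragments in CpG islands (left) and in L1Md_A elements (right), with fresh precursors in red, ESC in blue and passage 0 cells (P0), myoblasts (MB), myotubes (MT) and muscle in grey. The fresh libraries hold the highest L1Md_A shares of all, while muscle and some cultures exceed them in islands.

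Fragments of 200 to 300 bp took 16.7% of reads in ScQ and 11.8% in ScA, against 12.4% in CGR8, 10.4% in RD1 and 10.1% in E14Tg2, so the groups overlap. Those of 1000 to 2000 bp took 9.41% and 13.6% in fresh precursors, against 12.4%, 16.2% and 17.7% in the same ESC lines. Outside repeats and islands, the median log2 fold was 0.32 at 200 to 300 bp and -0.46 at 1000 to 2000 bp. The median fold of islands was above 0 in every length class with 20 or more tested fragments, with 2.25 at 200 to 300 bp and 1.19 at 1000 to 2000 bp. When a trend in length and GC content was removed from each library, an alternative added after these values had been seen, 390 island fragments were higher and 14 lower, and 536 L1Md_A fragments were higher and 14 lower. The median of all fragments was then 0.22, with 1.84 for islands and 1.19 for L1Md_A. The shares higher were 60.2% of islands and 40.4% of L1Md_A fragments, beside 21.7% of all fragments. As reported they were 50%, 47.1% and 17.4%, so the share of all fragments rose and that of L1Md_A fell.

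**Figure D5:**
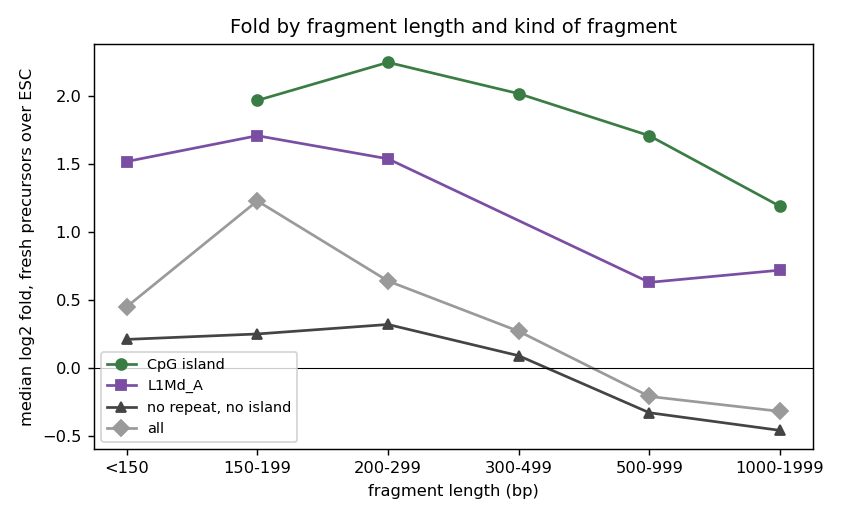
The median log2 fold of fresh precursors over ESC (y axis) is drawn by fragment length in bp (x axis) for CpG islands, L1Md_A elements, fragments outside both and outside other repeats, and all tested fragments, for classes with 20 or more fragments. Fragments with no repeat and no island go to -0.46 at 1000 to 2000 bp, and islands stay at 1.19 or above.

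Called fragments were also followed in the other libraries of the muscle lineage. Of the 1647 lower fragments, 97.6 and 98.1% had a level in the 2 passage 0 libraries nearer to the mean of fresh precursors than to that of ESC, on the scale log2(CPM + 0.5). In myoblasts this share was 86.5 to 91.7% and in muscle 62.1 to 69.2%. Of the 2840 higher fragments it was 45.2 to 72.9% in passage 0 cells, 49.1 to 92.6% in myoblasts and 60.2 to 76.1% in muscle. In myotubes of day 1, 2 and 4 the shares were 59.3 to 91.9%, 88 to 91.7% and 58.8 to 92.5% of the lower fragments, and 55.8 to 78.9%, 51.2 to 73.9% and 37.2 to 94.6% of the higher ones. The called fragments were picked by the same fresh and ESC levels, and such a share over all tested fragments was not computed. At fragments not called, the passage 0 medians were 17.8 and 12 CPM. Those of ScQ and ScA were 18.7 and 24.9 CPM, and those of ESC 18.8 to 27.8 CPM. Lower levels in passage 0 cells were thus not confined to the called fragments.

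ScQ and ScA stand for 1 library each, so injury was described with no test. Of 8944 fragments at 20 CPM or more in either, 18 were at least 4-fold higher in ScA (0.201%) and 8 lower (0.0894%). By the same rule, 0.291% of fragments were apart between ScA and ScQ, 1.62% between RD1 and E14Tg2, 3.62% between CGR8 and E14Tg2, 5.74% between CGR8 and RD1 and 5.59% between the 2 passage 0 cultures. Between the 2 CGR8 libraries this share was 11%. ScQ and ScA were closer to each other by this share than any of these pairs. By another measure, the chi-square per degree of freedom of the read counts, they were not the closest. It was 26.9 for ScA and ScQ, 25.1 for RD1 and E14Tg2 and 65.9 to 100 for the other pairs. Of promoter and exon fragments of named protein coding genes, 3 passed. An exon fragment of Atp10b, a lipid transporter gene, had 78.7 CPM in ScA and 15.3 CPM in ScQ, and 0 CPM in all 3 ESC lines. An exon fragment of Gm11627 had 24 CPM in ScA and 5.76 CPM in ScQ. The promoter fragment of Adam11, a gene expressed in brain, had 0.562 CPM in ScA and 22.2 CPM in ScQ. No fragment of the lists of muscle regulators, niche or contractile genes passed, and of all lists only the imprinted one had a fragment, at Kcnq1. By length, the 18 higher ones fell at 300 to 500 bp (3), 500 to 1000 bp (8) and 1000 to 2000 bp (7). The 8 lower ones fell at 200 to 300 bp (4), 300 to 500 bp (3) and 500 to 1000 bp (1). Of the 8944 fragments, 3087 were of 500 to 1000 bp and 2535 of 1000 to 2000 bp. Whether fragment length gave these differences was not tested. After TMM scaling 6 fragments were higher and 14 lower in ScA, so the direction of this small set depended on the scaling.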

How the data were processed

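AIMS-seq libraries were read on an Illumina GA2 and mapped to mm9 (per the labels' protocols). Tools named by the submitters' processing notes are Bowtie 0.11.3 and DESeq. The deposited table holds whole read counts per fragment and library, not normalized, per the file headers and its values; the authors' scaled values and comparison tables were not used. Fragment ends were checked against mm9, and genes came from GENCODE M1 on the same build. A fragment can touch several genes. The deposited table also gives the classes used for islands, shores and repeats. By these, a repeat is carried by the named fragments of Dppa4 (B1_Mur3), Cdh1 and Haus4 (PB1D10), Myh7 (MIRb) and Cep152 (ID_B1). Those of Itgam (RLTR10-int) and Meis2 (L1Md_F2) carry one as well.

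The main test was edgeR 4.0.16 (quasi-likelihood, TMM, a filterByExpr minimum of 10 reads, Benjamini-Hochberg adjustment, 2-sided), with DESeq2 1.42.0 as an alternative, in R 4.3.3, and described in Python 3.11.15 with scipy 1.17.1. Intervals are exact (Clopper-Pearson, 95%), and they and the floor of 3 reads cover counting error only, since PCR reads carry no molecular identifiers. Depth is given with the results.

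Named fragments are (a) that with the smallest p for each of 16 genes, (b) per list and direction the called one with the smallest adjusted p, (c) the 6 largest folds per direction among called fragments of protein coding genes with libraries apart and a mean at or above the median, (d) the 4 promoter islands per direction with the smallest adjusted p and (e) up to 5 per direction for ScA against ScQ. Others are named after their values were seen. The 17 gene lists, the members and the results on islands, L1Md_A and one-sided fragments were chosen with earlier results of these data known.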

Additional observations from a re-analysis of the deposited data

How the results depend on the processing

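Of 16 alternative fits, those below moved a count by over 1.5 times. Higher and lower fragments, 2840 and 1647 as reported, numbered 1537 and 456 with the first CGR8 library only, and 1429 and 175 with all groups in one fit. With 10 or more reads in each group 1685 were higher, and over all fragments 3220 were lower. Leaving out 1 library gave 1331 to 3404 higher and 318 to 2329 lower. Of the 55 named calls, 18 were lost without ScQ, 8 without ScA, 15 with the first CGR8 library only and 27 with all groups in one fit, and no named fragment changed sign. Those lost in one fit (adjusted p 0.0584 to 0.663) are Jarid2, Myf5, Pax3, Pax7, Cdh15, Acta1, Ckm, Col5a1, Hoxd4, Phlda2, Trappc9, Dmrtb1, Lhx2, Rbfox3, Prox1, Runx3, Mmrn2, Flt4, Osr1, Tagln, Acaca, Ebf2, Pmp22, Lmx1a, Tet3, Frmd5 and Cep152, where Tet3 is its lower fragment.

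Higher and lower island fragments, 324 and 15, were 50 and 8 with the first CGR8 library only and 17 and 7 in one fit. Lower ones were also 33 without the filter, 119 over all fragments and 3 with 10 or more reads in each group. Leaving out 1 library gave 36 to 446 higher and 8 to 18 lower. Higher L1Md_A fragments, 625, were 331 with the first CGR8 library only, 113 at 200 bp or more, 336 in one fit and 353 with 10 or more reads in each group, with 224 to 690 when 1 library was left out. The 8 lower ones were 14 without the filter, with the second CGR8 library only and after removal of the length and GC trends, 41 over all fragments, 3 at 200 bp or more and 1 with 10 or more reads in each group. They were 0 by edgeR with the first CGR8 library only (2 at an unadjusted p under 0.05) and in one fit (5), and 0 to 13 when 1 library was left out, where the 0 without ScQ and without ScA had 8 each at an unadjusted p under 0.05. By DESeq2 11 were lower.

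The difference in the exon share of reads was 0.684 percentage points as reported and -0.0021 when each fragment counted at most 1000 times. The 18 higher and 8 lower fragments of ScA over ScQ were 0 and 4 at 8-fold and 6 and 14 after TMM scaling. The cause of these changes was not tested, apart from the smaller number of fragments or libraries where an alternative leaves some out. With 1 library left of a group, that library is assumed to vary like the others.

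No paired analysis was possible because the labels give the fresh precursor libraries no replicate number that ESC lines share.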
